A study of Homo sapiens with 8 samples.

Results

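The genes described here are 10 regulators of pluripotent and germ cells, measured by RNA-seq in cells labelled Caco-2. Caco-2 is an established human line that the study describes as colorectal adenocarcinoma. The members are LIN28A, LIN28B, POU5F1, NANOG, SOX2, SALL4, DPPA4, TDGF1, DNMT3B and DNMT3L, matched by symbol to 10 of the 63816 gene entries of the deposited table, with the highest-mean entry taken where a symbol repeats. They were chosen by their measured levels in these samples, so the levels are given as a description, with no test. The cells had been stably transfected and kept under G418, and the groups were 4 samples with the empty vector pcDNA3.1 and 4 samples with the same vector carrying full-length SIGLEC12, the gene of the sialic acid-binding immunoglobulin-like lectin Siglec-XII. Each group came from its own transfection, so an effect of Siglec-XII cannot be told apart from one of the transfection or of the cells it happened to select. The sources differ on whether samples were separate cultures or technical libraries, so p-values measure only the spread between these samples.

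Levels are log2(TPM + 1), where TPM is transcripts per 1e+06 transcripts, a scale that accounts for transcript length. Because every column sums to the same total, the depth behind each value is unknown, and between 15513 and 15934 entries reached 1 TPM per sample. SIGLEC12 itself stood at 0.06 to 0.17 on this scale with the empty vector and at 10.63 to 10.76 with Siglec-XII. Of 16 markers of colon epithelium, 3 passed the filter of 1 TPM in at least 4 samples: EPCAM, an epithelial adhesion molecule, and CDX1 and CDX2, the intestinal homeobox factors, with mean levels of 9.08, 7.12 and 5.26 in the empty vector samples. KRT20, FABP1, SI, PHGR1 and TFF3, 5 markers of differentiated intestinal cells, were listed at 0 in all 8 samples. HNF4A, VIL1, CDH17 and LGALS4 did not pass the filter either, and HNF4A, a transcription factor of gut epithelium, was at or below 0.174 TPM. The summed TPM of the 16 colon markers, of which EPCAM alone made up 527 to 585, ran from 710 to 736 with the empty vector and from 734 to 792 with Siglec-XII. Among 17 trophoblast markers 16 passed the filter, and their summed TPM ran from 2113 to 2305 with the empty vector and from 2165 to 2234 with Siglec-XII. The highest were GATA3, a transcription factor (8.64 and 8.49), HSD3B1, a steroid-synthesizing enzyme (8.43 in both groups), and PAGE4, a protein of placenta and prostate (8.25 and 8.05). Others lay near the filter over all samples, with CGA at 0.13 to 1.35 TPM, ERVW-1 at 1.08 to 1.59 and ERVFRD-1 at 0.55 to 2.48. ELF5, which reached 0.70 TPM at most, did not pass it. No gene of either marker list was called different between the groups. Most colon epithelium markers were thus below the filter in cells labelled Caco-2, while most trophoblast markers passed it, some of them narrowly. The identity of the cells was not tested, nor was the part of these markers' cell types in the levels below.

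In pluripotent stem cells the transcription factors POU5F1 (OCT4), SOX2 and NANOG bind one another's genes and hold the cell in an undifferentiated state. SALL4, a zinc finger factor, works with them and with the NuRD histone deacetylase complex. LIN28A and LIN28B are RNA-binding proteins that block the maturation of the let-7 microRNAs, which in differentiated cells repress growth-promoting mRNAs. DNMT3B lays down new DNA methylation, and DNMT3L is a catalytically inactive cofactor of DNMT3 enzymes in germ cells. DPPA4 is a chromatin-associated factor of early embryos, and TDGF1 (CRIPTO) is a surface coreceptor for the growth factor NODAL.

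The members fell into 4 genes of substantial level and 6 near 0 in both groups. LIN28A stood highest, followed by SALL4, DNMT3B and LIN28B, and these 4 were above 1 TPM in all 8 samples. NANOG followed far below, and POU5F1, TDGF1, SOX2, DNMT3L and DPPA4 came last. The order held in all 8 samples from LIN28A down to POU5F1, although the ranges of the neighbours SALL4 and DNMT3B overlapped across samples. From POU5F1 to DPPA4 the ranges of each neighbouring pair overlapped, so no full order could be read among those 5 genes, although POU5F1 lay above DPPA4 within each of the 8 samples. In mean level, LIN28A exceeded 93.1% of the 15590 entries that passed the filter, SALL4 90.1%, DNMT3B 88.3% and LIN28B 59.5%. The core network of POU5F1, SOX2 and NANOG was thus near 0 in samples in which LIN28A, SALL4 and DNMT3B were abundant.

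**Figure D1:**
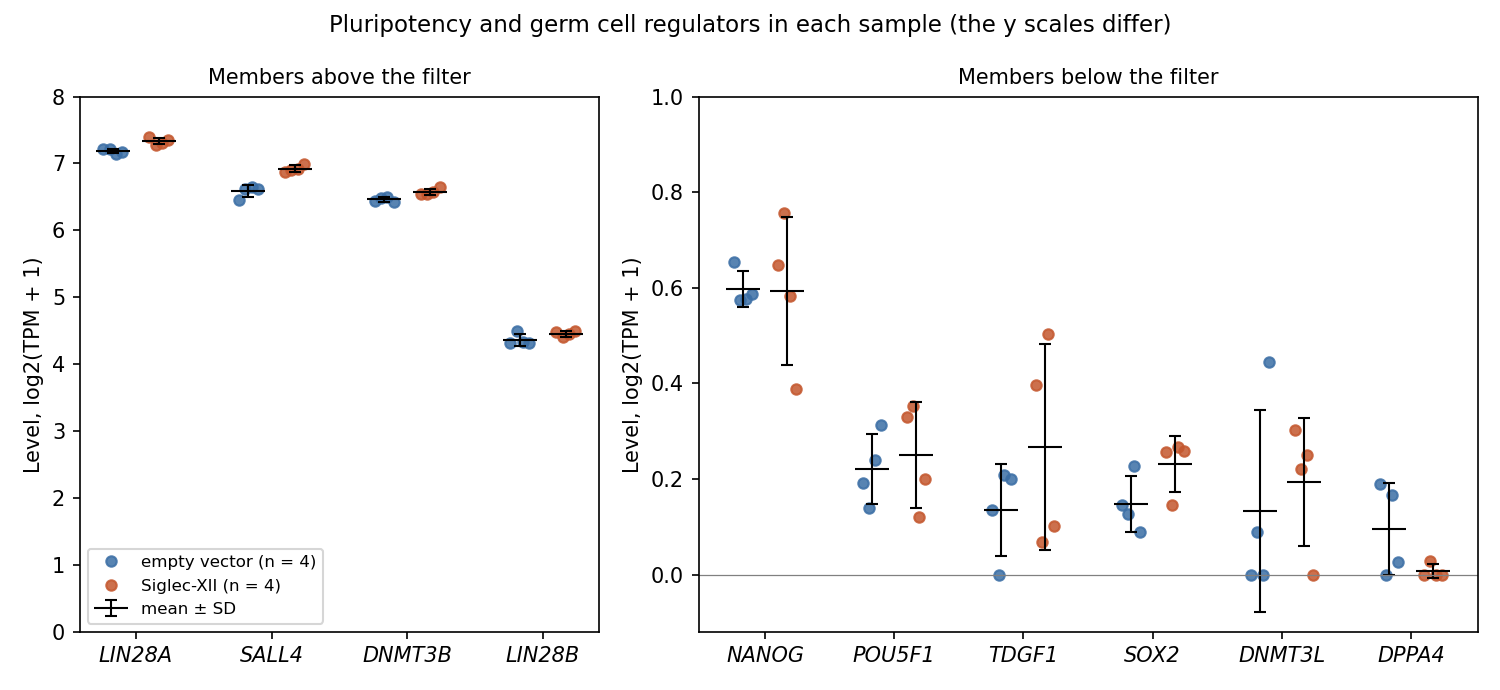
Level of each member in each sample as log2(TPM + 1), with blue points for the 4 empty vector samples, orange points for the 4 Siglec-XII samples, and black bars for the mean ± SD. The 4 members that passed the filter (left) lie between 4.31 and 7.40, and the 6 others (right, on a different scale) lie at or below 0.76.

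Between the groups, 1 of the 4 tested members was called different by limma with Benjamini-Hochberg adjustment over all 15590 entries. This was SALL4, higher with Siglec-XII, against 0.648% of all entries called in either direction and 0.34% called higher. These shares rest in part on small structured RNA entries, of which 415 were tested. With them left out, 29 of 15175 entries were called, 21 of them higher, and SALL4 had a limma adjusted p of 0.046. At an unadjusted limma p under 0.05 there were 3 members, all higher, beside 16.5% of all entries in either direction and 13.9% higher. The split of all calls between directions depended on the processing, with 53 of 101 calls higher as reported. Rescaling gave 28 of 86 with quantile normalization, 24 of 82 with equal upper quartiles, 24 of 72 with abundant entries left out and 21 of 79 with the length trend removed. With the scaling kept, it was 21 of 51 with no filter, 23 of 54 without the variance trend and 18 of 69 with same-numbered samples as blocks. Without empty vector replicate 2 it was 111 of 159. It was 22 of 56, 17 of 49 and 24 of 59 without empty vector replicates 1, 3 and 4. Without Siglec-XII replicates 1 to 4 it was 18 of 63, 23 of 58, 19 of 64 and 16 of 58. The Siglec-XII samples lay above every empty vector sample for 3 of the 4 tested members, SALL4, LIN28A and DNMT3B, while 9.17% of all tested entries were higher without overlap. The median difference of the 4 tested members was 0.13 on the log2 scale, beside 0.07 over all tested entries. Both medians shrank with the scaling, to 0.07 and 0.01 with quantile normalization and to 0.05 and 0.005 with the length trend removed. In bulk RNA, more cells expressing a gene and more of its RNA per cell cannot be told apart.

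SALL4 (ENSG00000101115, minus strand of chr20:50398870-50419060, GRCh37) was the member that rose. Its level was 6.46, 6.62, 6.65 and 6.62 in the empty vector samples and 6.88, 6.90, 6.92 and 6.99 in the Siglec-XII samples. The groups did not overlap, and empty vector replicate 1 was the lowest of the 8. In TPM, SALL4 stood at 95.2 ± 5.57 (SD, n = 4) in empty vector samples against 120 ± 3.93 (SD, n = 4) in Siglec-XII samples. The difference was 0.34 on the log2 scale (SE 0.05, limma 95% interval 0.22 to 0.45, adjusted p = 0.0244). The call did not hold in 10 of 20 alternatives, although the difference kept its direction in all 20. Summing entries of its symbol or its copies, among those that kept the call, hardly moved SALL4, whose copies stood at or near 0. The limma adjusted p was 0.0625 without empty vector replicate 3, 0.0660 without empty vector replicate 4, 0.0633 without Siglec-XII replicate 1, 0.0801 without Siglec-XII replicate 2, 0.0881 without Siglec-XII replicate 3 and 0.0792 without Siglec-XII replicate 4. It was 0.0800 with no filter, 0.0878 without the variance trend and 0.0736 with the trend of values with transcript length removed. With same-numbered samples taken as blocks, which the labels do not pair, the limma adjusted p was 0.0563.

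**Figure D2:**
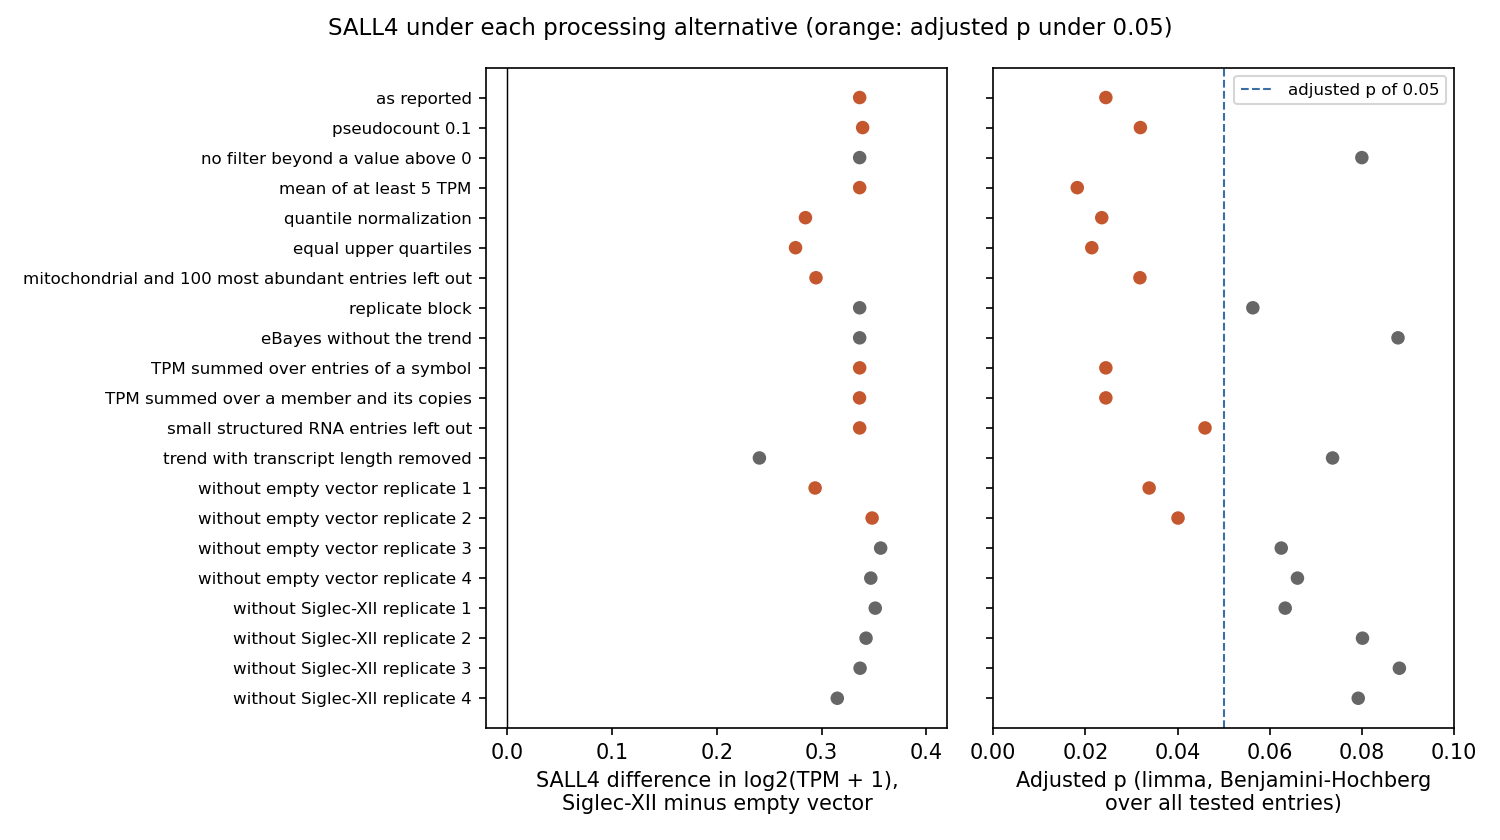
SALL4 as reported and under each of 20 processing alternatives, with the difference in log2(TPM + 1), Siglec-XII minus empty vector, on the left and the limma adjusted p on the right. The difference stays between 0.24 and 0.36, and the adjusted p runs from 0.0182 to 0.0881, crossing the dashed line at 0.05.

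The genes for NuRD subunits, the complex SALL4 works with, all passed the filter. A list of 15 genes for NuRD subunits, SOX factors related to SOX2 and the chromatin remodeller CHD7 held 14 tested entries, of which 1 was called higher with Siglec-XII and none lower, with 4 higher and 0 lower at an unadjusted p under 0.05 and a median difference of 0.11. Over all entries 0.648% were called, 13.9% were higher at the unadjusted limit and the median was 0.07. The highest levels were those of RBBP4, a histone-binding subunit (mean 8.12 in empty vector samples against 8.22 in Siglec-XII samples), and of the deacetylases HDAC2 (7.67 and 7.75) and HDAC1 (7.50 and 7.62). The gene called was MTA2, a NuRD scaffold subunit, at 7.22, 7.31, 7.24 and 7.27 with the empty vector and 7.44, 7.46, 7.55 and 7.58 with Siglec-XII. The groups did not overlap for MTA2, and its difference was 0.25 (SE 0.04, limma adjusted p = 0.0466). This call held in 4 of 20 alternatives, with limma adjusted p between 0.0365 and 0.149. Those 4 include summing the entries of a symbol and summing a member with its copies, which changed members only and could hardly move MTA2. Leaving out any 1 sample other than empty vector replicate 2 raised the adjusted p to between 0.0835 and 0.148. SOX3 was listed at 0 in all samples, and SOX1 stood near 1 TPM in both groups.

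LIN28A (ENSG00000131914, plus strand of chr1:26737308-26756219, GRCh37) had the highest level of all members. It stood at 7.21, 7.21, 7.14 and 7.18 in the empty vector samples and at 7.40, 7.28, 7.31 and 7.35 in the Siglec-XII samples. The groups did not overlap, and the gap between the highest empty vector sample and the lowest Siglec-XII sample was narrow. In TPM the means were 145 ± 3.33 (SD, n = 4) and 160 ± 5.55 (SD, n = 4), and the difference of 0.15 on the log2 scale (SE 0.04, limma 95% interval 0.05 to 0.24) had an unadjusted p of 0.0059 and an adjusted p of 0.147. It was therefore not called, and it was 0.08 with quantile normalization or equal upper quartiles and 0.06 with the length trend removed.

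LIN28B (ENSG00000187772, plus strand of chr6:105384491-105531207, GRCh37) is the paralog of LIN28A and had a lower level. It stood at 4.31, 4.49, 4.33 and 4.32 in the empty vector samples and at 4.47, 4.40, 4.45 and 4.49 in the Siglec-XII samples. The groups overlapped, because empty vector replicate 2 was level with the highest Siglec-XII sample, and the difference of 0.09 (SE 0.06, limma 95% interval -0.05 to 0.23, adjusted p = 0.505) was within the spread, and was 0.02 with quantile normalization. The table's entry for LIN28B names a transcript of 912 bases while that of LIN28A names one of 3975 bases, and TPM depends on the length used. With that limit, the ratio of LIN28A to LIN28B in TPM was 7.40 ± 0.426 (SD, n = 4) in empty vector samples against 7.66 ± 0.164 (SD, n = 4) in Siglec-XII samples, a difference that did not pass a two-sided exact permutation test (p = 0.314). The antisense transcript LIN28B-AS1, which overlaps the start of LIN28B on the other strand, stood at or below 0.21 in every sample, and the pseudogenes LIN28AP1 and LIN28AP2 were listed at 0 in all samples.

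The let-7 microRNAs, the best known targets of the LIN28 proteins, are shown because their shared seed defines the sites sought in the members' mRNAs. Among the mature sequences of RefSeq, 11 names from 14 genes carry the let-7a seed, bases 2 to 8, of 2370 names in all. The mature sequences of 4 of them, with the seed in capitals, are the following.
hsa-let-7a-5p: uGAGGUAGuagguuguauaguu
hsa-let-7g-5p: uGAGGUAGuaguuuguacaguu
hsa-let-7i-5p: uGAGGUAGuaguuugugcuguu
hsa-miR-98-5p: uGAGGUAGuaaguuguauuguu
The letters after the seed differ at few positions, and the seed is the same in all 4.

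LIN28 proteins recognise the letters GGAG in the loop region of let-7 precursors. Searched on the transcript strand, GGAG occurred anywhere in 10 of 13 hairpins of the family in RefSeq's table (72 to 119 bases long). Downstream of the mature sequence that carries the seed, it occurred in 9 of 13. In the hairpin of miR-4500 that sequence lies near the 3′ end, so its loop was not part of the narrower count. Of all 1560 hairpins in that table, 43.4% hold GGAG somewhere. The hairpins of let-7g and let-7i hold it once, and that of let-7a-3 does not hold it, as the capitals marking GGAG show.
let-7g (MIRLET7G, chr3:52268278-52268361, minus strand, GRCh38.p14): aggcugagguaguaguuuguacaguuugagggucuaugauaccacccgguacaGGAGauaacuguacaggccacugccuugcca
let-7i (MIRLET7I, chr12:62603686-62603769, plus strand, GRCh38.p14): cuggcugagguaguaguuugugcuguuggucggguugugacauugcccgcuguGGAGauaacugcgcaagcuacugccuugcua
let-7a-3 (MIRLET7A3, chr22:46112749-46112822, plus strand, GRCh38.p14): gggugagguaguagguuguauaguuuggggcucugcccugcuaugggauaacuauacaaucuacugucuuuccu
A match is a description of the letters and not evidence of binding.

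Mature let-7 was not measured here. Of 12 hairpin entries of the let-7 family in the table, 8 were listed at 0 in all samples, and of their 96 values 8 were above 0. The 3 host transcripts found, MIR100HG, MIR99AHG and MIRLET7BHG, summed to between 0.18 and 0.85 TPM with the empty vector and between 0.33 and 0.61 TPM with Siglec-XII, so the ranges overlapped. In a search of 19070 annotated 3′ UTRs (the annotation's canonical transcript of each gene, transcript strand) for CTACCTC, the match to the let-7 seed, 9.7% held at least 1. Among the 10 members 3 held the match: LIN28B with 4 matches in 4549 bases, LIN28A with 1 in 3270 bases and SALL4 with 1 in 1934 bases. Among all 3′ UTRs of 0.8 to 1.2 times their lengths, a match occurred in 22.9%, 15.8% and 12.0%. The 3′ UTR searched for LIN28B is longer than the 912 bases of the transcript its entry names. Whether the RNA measured there holds these matches is not known. The window of LIN28A, the first of LIN28B and that of SALL4, each in an annotated 3′ UTR exon, are printed because they lie in 3 of the 4 abundant members, with the match in capitals.
LIN28A, GRCh37 chr1:26753832-26753861, plus strand: ttggagtgcacagcctattgaaCTACCTCa
LIN28B, chr6:105526680-105526709, plus strand: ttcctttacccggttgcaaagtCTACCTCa
SALL4, chr20:50399462-50399491, minus strand: gggtgtgaaagctttaatttatCTACCTCa
All 3 printed matches are followed by an A in the GRCh37 sequence. Of the LIN28B matches not printed, the one at base 2653 of the 3′ UTR is too, while those at 2471 and 4092 are not. No match in the windows of the other members says only that these letters are not in those 3′ UTRs.

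The genes around the LIN28 proteins and let-7 were expressed throughout. The list held 21 entries, all of them tested, of which none was called in either direction, with 11 higher and 0 lower at an unadjusted limma p under 0.05, beside the 13.9% of all entries that were higher at this limit. The mean was higher with Siglec-XII for 18 of the 21 and lower for 3. The median difference was 0.12 beside 0.07 over all entries, and 10 of the 21 were higher without overlap, beside the 9.17% of all entries. Even the lowest in level, TUT7, exceeded 41.6% of the tested entries, so these shares over all entries are not matched to the list in level. The counts are those of the scaling as reported, and a shift of the list as a set was not tested. The highest levels belonged to HMGA1, a chromatin architectural protein (9.68 and 9.69), MYC, the growth-promoting transcription factor (7.17 and 7.35), and IGF2BP1, an RNA-binding protein of fetal tissue (7.18 in empty vector samples against 7.48 in Siglec-XII samples). HMGA1 differed by 0.01 (SE 0.05), the smallest of these 3 differences. IGF2BP1 stood at 6.94, 7.35, 7.28 and 7.13 with the empty vector and at 7.45, 7.38, 7.58 and 7.52 with Siglec-XII, a difference of 0.30 (SE 0.09, limma adjusted p = 0.150) that was not called. Among the list, 9 of 21 genes held the seed match in their 3′ UTR, IGF2BP1 with 4 and HMGA1 with 1, while MYC held none. Of all 3′ UTRs searched 9.7% held it, and of those of 0.8 to 1.2 times the length 32.8% for IGF2BP1, 8.4% for HMGA1 and 12.5% for MYC. The list was drawn up around LIN28 and let-7, so this count describes the choice of genes and is no test.

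**Figure D3:**
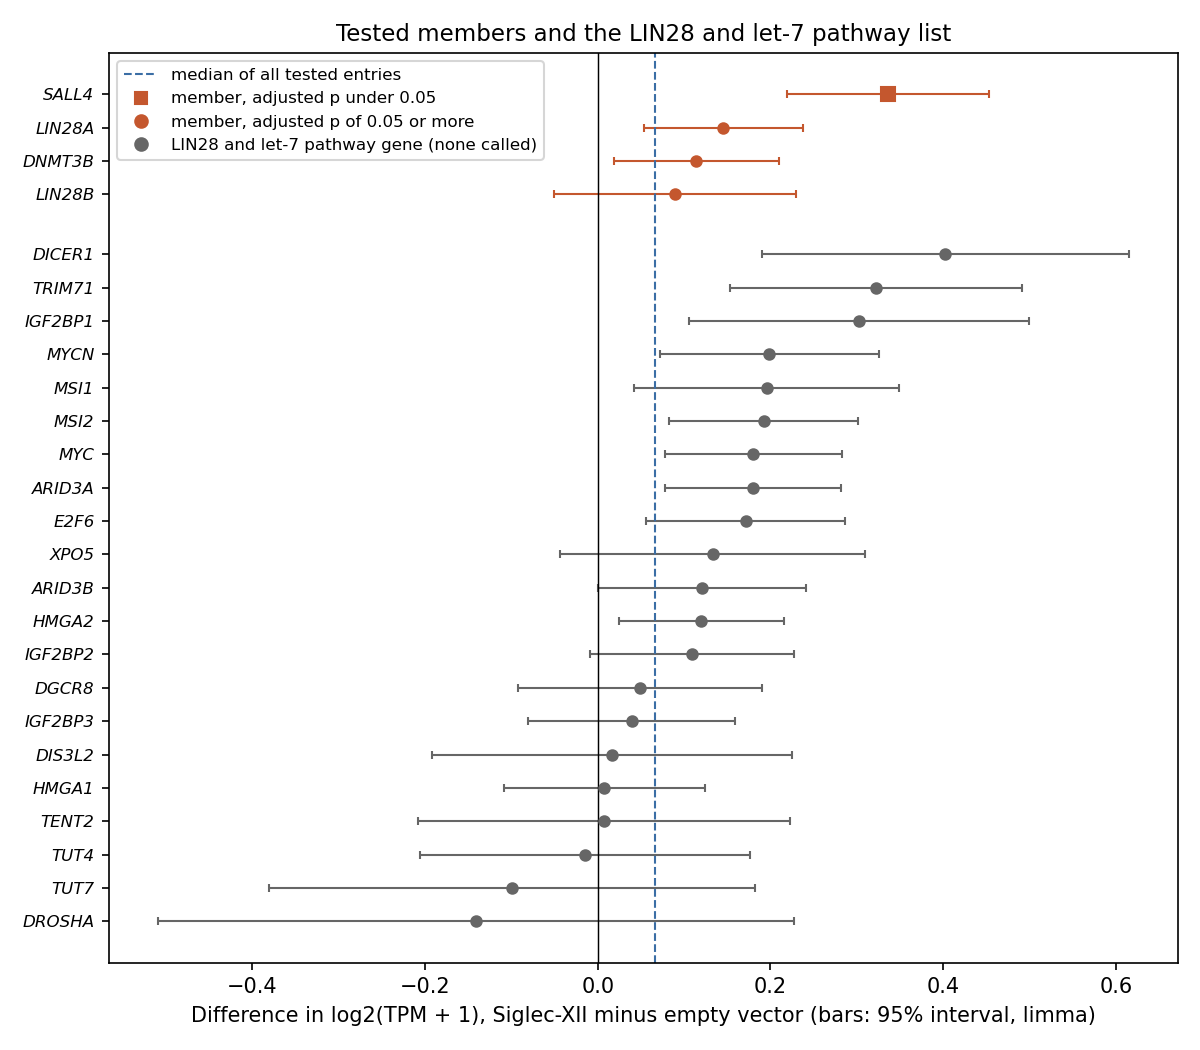
Difference in log2(TPM + 1), Siglec-XII minus empty vector, with limma 95% intervals for the 4 tested members (orange) and the 21 genes of the LIN28 and let-7 pathway (grey). SALL4 (square) is the only gene drawn with an adjusted p under 0.05, and the dashed line marks the median of all tested entries, 0.07.

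DNMT3B (ENSG00000088305, plus strand of chr20:31350191-31397165, GRCh37) stood at 6.44, 6.48, 6.50 and 6.43 in the empty vector samples and at 6.54, 6.54, 6.57 and 6.64 in the Siglec-XII samples. The groups did not overlap, but the separation was small, since the highest empty vector and lowest Siglec-XII samples were nearly equal. In TPM the means were 87.1 ± 2.01 (SD, n = 4) and 94.4 ± 3.25 (SD, n = 4). The difference of 0.11 (SE 0.04, limma 95% interval 0.02 to 0.21) had an unadjusted p of 0.0239 and an adjusted p of 0.232, and was not called. It was 0.06 with quantile normalization, 0.05 with equal upper quartiles and 0.02 with the length trend removed.

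DNMT3L (ENSG00000142182, minus strand of chr21:45666222-45682099, GRCh37) was near 0. It stood at 0, 0.09, 0 and 0.44 with the empty vector and at 0.30, 0.22, 0.25 and 0 with Siglec-XII. Both groups held samples listed at 0 and the groups overlapped (two-sided exact permutation p = 0.657). The catalytic enzyme DNMT3B stood above DNMT3L in every sample.

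The rest of the DNA methylation machinery was present. All 18 genes of the list were tested and none was called, with 6 higher and 0 lower at an unadjusted limma p under 0.05 (13.9% of all entries were higher), 4 higher without overlap (9.17% of all entries) and a median difference of 0.13 (0.07 over all entries). Of the 6, MBD3 was also counted on the list with NuRD subunits. TRIM28, a corepressor that silences retroelements, stood highest (9.60 in empty vector samples against 9.59 in Siglec-XII samples), followed by DNMT1, the maintenance methyltransferase (7.14 and 7.12), and TDG, a glycosylase of the demethylation pathway (6.57 and 6.63). Each of these 3 genes differed by less than the spread of its samples.

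NANOG (ENSG00000111704, plus strand of chr12:7940390-7951742, GRCh37) was the highest of the members below the filter. It stood at 0.65, 0.58, 0.58 and 0.59 with the empty vector and at 0.65, 0.76, 0.58 and 0.39 with Siglec-XII. The means were 0.60 in the empty vector and 0.59 in the Siglec-XII samples, and the groups overlapped (two-sided exact permutation p = 0.914). Of 12 entries for its copies, NANOGP1 among them, 8 were listed at 0 in all samples.

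POU5F1 (ENSG00000204531, minus strand of chr6:31132114-31148508, GRCh37) stood at 0.19, 0.14, 0.24 and 0.31 with the empty vector and at 0.33, 0.35, 0.12 and 0.20 with Siglec-XII. The groups overlapped throughout (two-sided exact permutation p = 0.657). Reads of POU5F1 can be divided among 13 further entries, 6 with the same symbol and the others its retrocopies, and of these POU5F1B, the only one above 0 in all samples, ranged from 0.0613 to 0.191 TPM. Summed with its copies POU5F1 reached at most 0.506 TPM in any sample.

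SOX2 (ENSG00000181449, plus strand of chr3:181429713-181432224, GRCh37) stood at 0.14, 0.13, 0.23 and 0.09 with the empty vector and at 0.26, 0.14, 0.27 and 0.26 with Siglec-XII. The Siglec-XII mean was the higher, but Siglec-XII replicate 2 lay among the empty vector samples (two-sided exact permutation p = 0.0857). SOX2-OT, the long noncoding transcript in whose span SOX2 lies on the same strand, stood at 0.99, 1.02, 1.40 and 1.24 with the empty vector and at 0.93, 0.95, 0.87 and 0.96 with Siglec-XII. SOX2-OT was thus above SOX2 in every sample and lower in all 4 Siglec-XII samples than in any empty vector sample, at levels close to 1 TPM where the fit across entries did not test it.

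DPPA4 (ENSG00000121570, minus strand of chr3:109044991-109056393, GRCh37) had the lowest mean of the members. It stood at 0.19, 0, 0.17 and 0.03 with the empty vector and at 0, 0.03, 0 and 0 with Siglec-XII. It was listed at 0 in 4 of 8 samples, and the groups overlapped (two-sided exact permutation p = 0.257).

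TDGF1 (ENSG00000241186, plus strand of chr3:46616024-46623947, GRCh37) stood at 0.14, 0, 0.21 and 0.20 with the empty vector and at 0.40, 0.07, 0.50 and 0.10 with Siglec-XII. Siglec-XII replicates 1 and 3 were the highest of the 8, while the other 2 Siglec-XII samples lay among the empty vector samples (two-sided exact permutation p = 0.343). The processed pseudogene TDGF1P5 stood at 0.43, 0.48, 0.27 and 0.45 with the empty vector, but the table lists it at 0 for each of the 4 Siglec-XII samples. This was the reverse of the order of the means of TDGF1, and reads shared between a gene and its pseudogenes leave both values uncertain. Summed with its 7 copies, TDGF1 ran from 0.52 to 0.91 with the empty vector and from 0.10 to 0.66 with Siglec-XII, and these ranges overlapped. Of the 6 members below the filter, 0 had an exact permutation p under 0.05, the smallest this test of 4 against 4 samples can give being 0.0286, and 0 separated the groups, which at such levels and unknown depth says only that no difference was detectable.

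NODAL, the ligand TDGF1 serves, was also near 0. It was at or below 0.132 TPM in every sample, its antagonists LEFTY1 and LEFTY2 at or below 0.219 and 0.026 TPM, and CER1 was listed at 0 throughout. GDF1, a related ligand, passed the filter and ranged up to 1.89 TPM. The receptors ACVR1B, ACVR2A and ACVR2B, which other ligands also use, passed the filter, while ACVR1C stayed at or below 0.405 TPM. The signal transducers SMAD4 (mean 5.52 in empty vector samples against 5.58 in Siglec-XII samples), SMAD2 (5.28 and 5.30) and SMAD3 (4.59 and 4.82) were the highest of the list. Of its 18 genes 10 were tested and none was called by limma, with 3 higher and 0 lower at an unadjusted p under 0.05 (13.9% of all entries were higher) and a median difference of 0.19 (0.07 over all entries).

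Beyond the members, other pluripotency genes ranged from abundant to absent, with levels in between. Of 28 on the list 13 passed the filter, led by KLF5, a Krüppel-like factor shared with gut epithelium (mean 7.97 in empty vector samples against 8.08 in Siglec-XII samples), MYC (7.17 and 7.35) and ZFP42, also called REX1, a zinc finger marker of stem cells (6.75 and 6.81). DPPA5 and FGF4 were listed at 0 in all samples. In the comparison of groups 1 of the 13 was called higher by limma and none lower, 5 were higher and 0 lower at an unadjusted p under 0.05, and the median difference was 0.17. Over all entries these shares were 0.648% called, 13.9% higher at the unadjusted limit, and the median 0.07. Among the 5, MYC, MYCN and TRIM71 were also counted on the LIN28 and let-7 list, so the counts of those lists are not independent. The gene called was TBX3, a T-box factor of stem cells and embryonic epithelia, at 5.69, 5.68, 5.78 and 5.92 with the empty vector and 6.09, 6.12, 6.13 and 6.06 with Siglec-XII. The groups did not overlap for TBX3, and the difference was 0.33 (SE 0.06, limma adjusted p = 0.0498). The call held in 4 of 20 alternatives. Those 4 include summing the entries of a symbol and summing a member with its copies, which changed members only and could hardly move TBX3. Leaving out any 1 sample other than empty vector replicate 4 raised the limma adjusted p to between 0.0647 and 0.148.

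**Figure D4:**
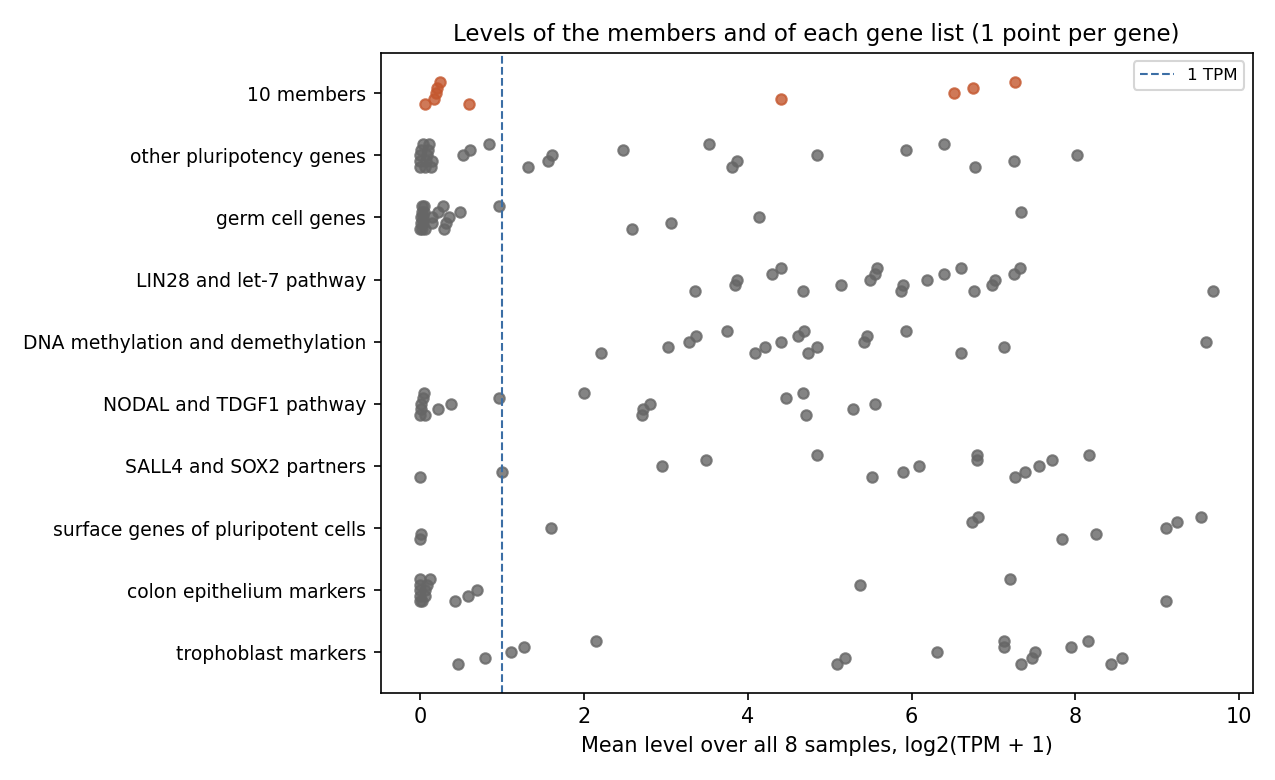
Mean level over all 8 samples, as log2(TPM + 1), of each member (orange) and of each gene of 9 other lists (grey), 1 point per gene, with 1 TPM as a dashed line. The 10 members fall into 4 above the line and 6 below it, and the LIN28 and let-7 pathway and DNA methylation lists lie wholly above it.

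Germ cell genes were mostly near 0. Of 24 on the list 4 passed the filter, namely TFAP2C, a transcription factor of primordial germ cells that trophoblast also uses (mean 7.31 in empty vector samples against 7.37 in Siglec-XII samples), STK31, a testis protein with a kinase domain (4.19 and 4.09), NANOS1, an RNA-binding protein (6.48 to 9.38 TPM over all samples), and PIWIL4, a partner of piRNAs. None was called by limma, 0 had an unadjusted p under 0.05 (16.5% of all entries did), and the median difference was 0.08 (0.07 over all entries). DDX4 and DAZL, the markers of committed germ cells, were at or below 0.078 and 0.017 TPM, and SOX17, which specifies human primordial germ cells, was listed at 0 in all samples. Among 10 surface genes of pluripotent cells 8 were tested and none was called, with 2 higher and 0 lower at an unadjusted p under 0.05 (13.9% of all entries were higher) and a median difference of 0.09. CD24 (9.50 and 9.57), the tight junction protein CLDN6 (9.25 and 9.24) and EPCAM (9.08 and 9.15) led that list, while THY1 was listed at 0 in all samples.

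Across the 132 distinct genes of the other lists, 84 were tested, 2 were called higher with Siglec-XII (TBX3 and MTA2) and 0 lower, beside 0.648% of all entries called in either direction. The colon marker list had a median difference of 0.17 over its 3 tested genes, with 2 higher at an unadjusted p under 0.05, and the trophoblast list 0.005 over 16 genes, with 2 higher, beside 13.9% of all entries higher at this limit and an overall median of 0.07.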

How the data were processed

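The members and the gene lists were chosen with earlier results of these data known. RNA from 8 Caco-2 samples, 4 per group by the titles in the labels, had been sequenced on paired ends with a stranded kit; the labels name a total RNA kit and the study's methods an mRNA kit. The authors quantified reads with kallisto against hg19 and deposited 1 table of log2(TPM + 1), 63816 entries, 1 column per sample. Whether an entry sums all transcripts of a gene is not given in the sources used here, and no counts were used, so the precision of single values is unknown. Positions, transcript lengths and 3′ UTRs came from GENCODE v44 lifted to GRCh37, microRNA sequences from RefSeq (GRCh38.p14).

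The Siglec-XII samples were tested against the empty vector samples in R 4.3.3 with limma 3.58.1 (lmFit, eBayes with trend, Benjamini-Hochberg) over the 15590 entries at 1 TPM or more in at least 4 samples. Differences are on the log2(TPM + 1) scale, which understates changes of low genes. Shares over all tested entries were not matched in level to any list. List counts at an unadjusted p or without overlap are those of the scaling as reported. Members below the filter were compared by two-sided exact permutation tests (70 labellings). The code was run on simulated data with known changes, drawn independently for each sample. That run does not test the assumptions of the fit for these data. All members are named. Of each other list the text names genes with an adjusted p under 0.05 and the 3 of highest mean. Other genes near 0, PIWIL4, SOX1, GDF1, CHD7, CGA, ERVW-1, ERVFRD-1 and the activin receptors were named after their values were seen. Alternatives covered pseudocount, filter, scaling, copies, the replicate block, the variance trend and each sample left out. Leaving out small structured RNA entries and removing the length trend were not planned. Nor were any alternatives for the other lists, TBX3, MTA2 or the members below the filter. Figures were drawn with matplotlib 3.10.9 in Python 3.11.15.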

Additional observations from a re-analysis of the deposited data

Results flagged for a closer look

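Over the 10 members and 6 other genes, 31 groups of 4 samples held values that were not all equal. In 5 of these groups the highest or lowest sample stood apart from the others by more than Dixon's 95% limit, where chance flags about 1 group in 20 of normally distributed values. That rate does not hold for groups with samples listed at 0. For DPPA4 with Siglec-XII, with 3 samples at 0, any value above 0 in the remaining sample would be flagged. SALL4 was low in empty vector replicate 1 at 6.459, and its difference without that sample was 0.29 with a limma adjusted p of 0.0338. LIN28B was high in empty vector replicate 2 at 4.494, level with the highest Siglec-XII sample. NANOG was high in empty vector replicate 1 at 0.6538, SOX2 was low in Siglec-XII replicate 2 at 0.1445, and DPPA4 was at 0.02905 in Siglec-XII replicate 2 where the other 3 Siglec-XII samples were listed at 0. These 3 genes lie below 1 TPM.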

How the results depend on the processing

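The calls and differences of tested genes were recomputed under 20 alternatives, and the count of members below the filter with an exact p under 0.05, 0, under 5, which left it at 0. Summing the entries of a symbol, or a member with its copies, changed members only and could hardly move calls of other genes. The count of members called, 1, was 0 with no filter, with the replicate block, without the variance trend and with the trend with transcript length removed (chosen after seeing the data), and 0 to 1 when 1 sample was left out. The count of called genes on the other lists, 2, was 0 with a pseudocount of 0.1, no filter, quantile normalization, equal upper quartiles, abundant entries left out, the replicate block, no variance trend, small structured RNA entries left out or the length trend removed, and 0 to 2 when 1 sample was left out. The cause was not tested. No difference reversed: the 4 tested members were higher in mean with Siglec-XII under all 20, and LIN28A, LIN28B and DNMT3B were called under none. Differences ran from 0.24 to 0.36 for SALL4, 0.06 to 0.16 for LIN28A, 0.02 to 0.13 for DNMT3B and 0.02 to 0.13 for LIN28B. The number of all entries called, 101, was 51 with no filter, 54 without the variance trend, 69 with the block, 29 without small structured RNA entries and 49 to 159 with 1 sample left out. With the replicate block the adjusted p of SALL4 was 0.0563. Same-numbered samples deviated together weakly or not at all (correlations across genes 0.04, 0.0282, -0.0742 and 0.0591, and 2 of 4 samples matched best with their own number), so the numbers were not taken as pairs. With no counts deposited, differences of members near 0 are limited by an unknown depth.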
